A study of Mus musculus with 24 samples.

Results

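The 10 genes described here make, carry and load microRNAs (miRNAs) or act with the let-7 miRNA family, and they were taken by name from a list of 10 symbols, all of which were found among 22380 protein-coding genes of the GENCODE M1 annotation on the mouse genome build mm9. They were Drosha, Dgcr8, Xpo5, Dicer1, Tarbp2, Eif2c1 and Eif2c2, where Eif2c is the older symbol of Argonaute, and Lin28a, Lin28b and Trim71. RNA-Seq was performed on RNA depleted of ribosomal RNA, which keeps unspliced and non-polyadenylated RNA, from differentiated CCE cells and from fetal head (FH). CCE is a feeder-independent embryonic stem cell line of 129/SvEv origin, and was differentiated for 5 days without leukaemia inhibitory factor in 0.266 uM retinoic acid. FH was whole head of FVB/N embryos at 14.5 dpc, so that it holds fetal brain together with other tissues of the head. The 14 RiboMinus libraries came from 4 CCE and 3 FH cDNA preparations, each sequenced at both Vienna-IMP and Nijmegen, while Ribo-Zero gave 1 library per tissue from other RNA.

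RNA was fragmented by RNA-hydrolysis in preparations CCE hydrolysed 1 and 2 and FH hydrolysed 1 and 2, and by cDNA-shearing in CCE sheared 1 and 2 and FH sheared 1. Depletion with RiboMinus was done in 1 round, except for FH hydrolysed 2 with 2 rounds. The tissues differ in strain, culture and cell composition together, which cannot be told apart. The CCE preparations were technical replicates of 1 RNA and no separate animals were stated for FH, so that all p values below measure the spread of preparation and sequencing. In a mixed tissue such as FH, fewer cells of a type and less RNA per cell cannot be told apart.

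In the nucleus Drosha and its RNA-binding partner Dgcr8 cut a hairpin out of a primary miRNA transcript, and Exportin-5, the product of Xpo5, carries it to the cytoplasm. There Dicer1 with its partner Tarbp2 cuts the hairpin to a duplex, of which 1 strand is loaded into an Argonaute protein. Lin28a and Lin28b bind let-7 precursors and block their maturation, let-7 and miR-125 repress Lin28 and Trim71 mRNAs through sites in their 3′ UTRs, and this loop is known for the switch of let-7 from low in embryonic stem cells to high in differentiated tissue such as the brain.

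The sequences on which this loop rests are shown first, since the 3 genes that were lowest in FH carry the sites. Mature sequences are from RefSeq (GRCm38.p6), with the seed at bases 2 to 8 in capitals.
let-7a-5p: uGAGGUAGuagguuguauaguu
let-7g-5p: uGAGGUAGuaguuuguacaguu
miR-98-5p: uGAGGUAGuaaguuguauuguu
let-7j: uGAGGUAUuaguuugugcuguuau
miR-125a-5p: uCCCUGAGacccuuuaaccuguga
miR-125b-5p: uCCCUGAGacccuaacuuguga
The seed GAGGUAG was shared by 10 of 11 mature let-7 and miR-98 sequences, the exception being let-7j, and both miR-125 sequences shared CCCUGAG. Lin28 proteins bind a GGAG motif in the loop of let-7 hairpins, which is the sequence between the arms that give the mature strands. The loop, or for loops above 30 bases the part around the motif, is shown with the motif in capitals.
Mirlet7g loop: accacccgguacaGGAGaua
Mirlet7f-1 loop: uuuacccuguuuaGGAGauaa
Mirlet7c-2 loop: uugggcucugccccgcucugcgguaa
GGAG was present in 9 of 12 let-7 and miR-98 hairpin loops, and Mirlet7c-2 is shown as a loop without it. The hairpins of let-7j and let-7k were not among these 12.

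An 8-base match to the seed plus a following A is CTACCTCA for let-7 and CTCAGGGA for miR-125, searched on the transcript strand of the 3′ UTR. Lin28a had 2 let-7 matches, Lin28b had 1 and Trim71 had 2, and each of these 3 genes had 1 miR-125 match. The 8 matches are shown in windows of 30 bases of the transcript strand (minus strand of mm9 for all 3 genes), with the match in capitals.
Lin28a let-7 site 1, chr4:133561093-133561122: agcctgttgaaCTACCTCAtttttgccgat
Lin28a let-7 site 2, chr4:133560455-133560484: tcgccacaaacCTACCTCActgtgttgaaa
Lin28a miR-125 site, chr4:133561205-133561234: acatgagcaatCTCAGGGAtaataagtccg
Lin28b let-7 site, chr10:45100817-45100846: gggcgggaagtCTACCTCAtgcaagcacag
Lin28b miR-125 site, chr10:45098593-45098622: aaagaactttgCTCAGGGAacataccatat
Trim71 let-7 site 1, chr9:114421579-114421608: ttgcctaagtcCTACCTCAgcttaaatttt
Trim71 let-7 site 2, chr9:114421483-114421512: ataatttctatCTACCTCAactctttgcat
Trim71 miR-125 site, chr9:114421666-114421695: gaagaaatcgtCTCAGGGAtatttcttttt
The 7 other genes had no 8-base match to either seed. The let-7 match was present in 2.69% and the miR-125 match in 4.05% of 17734 mouse 3′ UTRs of at least 100 bases. As long 3′ UTRs hold more matches, the share was also taken over 3′ UTRs of similar length, where the let-7 match was present in 5.64% for Lin28a, 9.31% for Lin28b and 3.32% for Trim71. The miR-125 match was present in 9.05%, 12.5% and 4.74% of these same groups of 3′ UTRs. These matches are a description of the letters in these UTRs and were not tested for function.

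Unique tags ranged from 920424 to 2473448 per RiboMinus library and from 1888761 to 4322418 per preparation, and the Ribo-Zero libraries held 28708715 (CCE) and 48426051 (FH) tags. Levels are given as RPKM (tags per kilobase of merged exons per 1000000 unique tags), and differences as log2(RPKM + 1) in FH minus CCE. Across the 10304 protein-coding genes with a mean RPKM above 3 in at least 1 tissue the median difference was −0.34, and all values below should be read relative to this shift, which was −0.03 when tags in protein-coding exons were used as the total. In exons of protein-coding genes were 66.8 to 69.5% of the tags of CCE preparations and 51.3 to 56.0% of those of FH. With exon tags as the total, the calls across all genes moved from 3582 lower and 2057 higher in FH to 2135 lower and 2853 higher. Of the marker genes examined, 6 of 7 pluripotency genes and 6 of 8 extraembryonic endoderm genes were lower in FH, with Pou5f1, Zfp42, Dppa5a and Gata4 at 0 tags in FH RiboMinus libraries. In FH 4 of 5 neuron genes, 3 of 4 neural progenitor genes, 4 of 6 erythroid genes, 3 of 4 skeletal muscle genes and 3 of 3 lens genes were higher, many of the markers passing the filter through a single tissue, so that FH held RNA of blood, muscle and lens genes besides those of brain.

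Of the 10 genes, 6 were lower in FH (Drosha, Xpo5, Eif2c2, Lin28a, Lin28b and Trim71), 1 was higher (Eif2c1) and 3 were not called (Dgcr8, Dicer1 and Tarbp2) at an adjusted p under 0.05. Across all tested genes 34.8% were called lower and 20% higher in FH by the same test. The median difference of the 10 genes was −1.06, beside −0.34 over all tested genes. That of the 7 genes that passed the filter on low values in both tissues was −0.36, beside −0.39 over all genes that did so. All 10 passed the filter on low values, of which 7 did so in both tissues, while Lin28a, Lin28b and Trim71 passed only through their level in CCE and had to differ to pass, so that their p values give no added support. Of the 7 genes that passed in both tissues 3 were lower (Drosha, Xpo5 and Eif2c2), 1 was higher (Eif2c1) and 3 were not called, beside 35.4% lower and 9.47% higher of the 7403 genes that did so. For the 7 called genes no FH preparation overlapped a CCE preparation. Every FH preparation was below every CCE preparation in 35.9% of all tested genes and above in 20.3%. An exact two-sided permutation test of 4 against 3 preparations cannot go below p = 0.0571, which each of these 7 genes reached. In the Ribo-Zero libraries 9 of the 10 genes differed in the same direction as in RiboMinus, the exception being Dgcr8, while with exon tags as the total 6 rather than 8 genes had a ratio under 1. The median Ribo-Zero difference over all tested genes was −0.48, so that lower in FH was the common direction there. Ribo-Zero has 1 library per tissue, so its ratios have no replicate check and their intervals cover counting error only.

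The order of the genes by level is given for the RiboMinus preparations. In CCE the highest mean was that of Trim71 with a mean RPKM of 26.4 ± 10.1 (SD, n = 4), followed by Xpo5 at 20.6 ± 3.38, Eif2c2 at 15.1 ± 3.00, Lin28a at 15.1 ± 2.44 and Drosha at 11.0 ± 2.35. Below these were Tarbp2 at 6.98 ± 1.03, Lin28b at 6.77 ± 2.88, Eif2c1 at 5.97 ± 1.33, Dgcr8 at 5.49 ± 1.31 and Dicer1 at 4.64 ± 0.766, which as neighbours differed by less than the larger of their SDs. The first place rested on CCE sheared 2, without which Trim71 was at 21.3 ± 0.352 and Xpo5 at 22.2 ± 1.23 (SD, n = 3), and in the CCE Ribo-Zero library Lin28a was highest at 87.9. These SDs hold for the hydrolysed numbers as listed, which may be crossed between the locations (below). In FH the highest was Eif2c1 at 16.2 ± 1.42 (SD, n = 3), followed by Xpo5 at 8.36 ± 1.252, and these were separated by more than their SDs, while the FH Ribo-Zero library gave the opposite order, with Xpo5 at 13.6 and Eif2c1 at 10.8. Tarbp2 at 5.99 ± 0.478, Eif2c2 at 5.67 ± 1.32, Drosha at 5.26 ± 0.654, Dgcr8 at 4.06 ± 1.01 and Dicer1 at 3.66 ± 0.434 followed, where Tarbp2, Eif2c2 and Drosha, and likewise Dgcr8 and Dicer1, were within the larger SD of their neighbour. Lin28b, Trim71 and Lin28a were all below 1 in FH. Only bases with a unique 36-mer can give tags, so that levels of genes with copies elsewhere, foremost Tarbp2, are understated in this order. The order also depends on the bases counted. Merged exons hold 9065 bases for Lin28b and 7286 for Dgcr8, beside 5402 and 4522 in their main transcripts. Over coding bases of the main transcripts in the pooled CCE RiboMinus libraries, Trim71 (33.1), Lin28a (30.4) and Lin28b (29.3) were above Xpo5 (20.7). Dgcr8 (12.4) was above Eif2c2 (10.3) there.

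**Figure D1:**
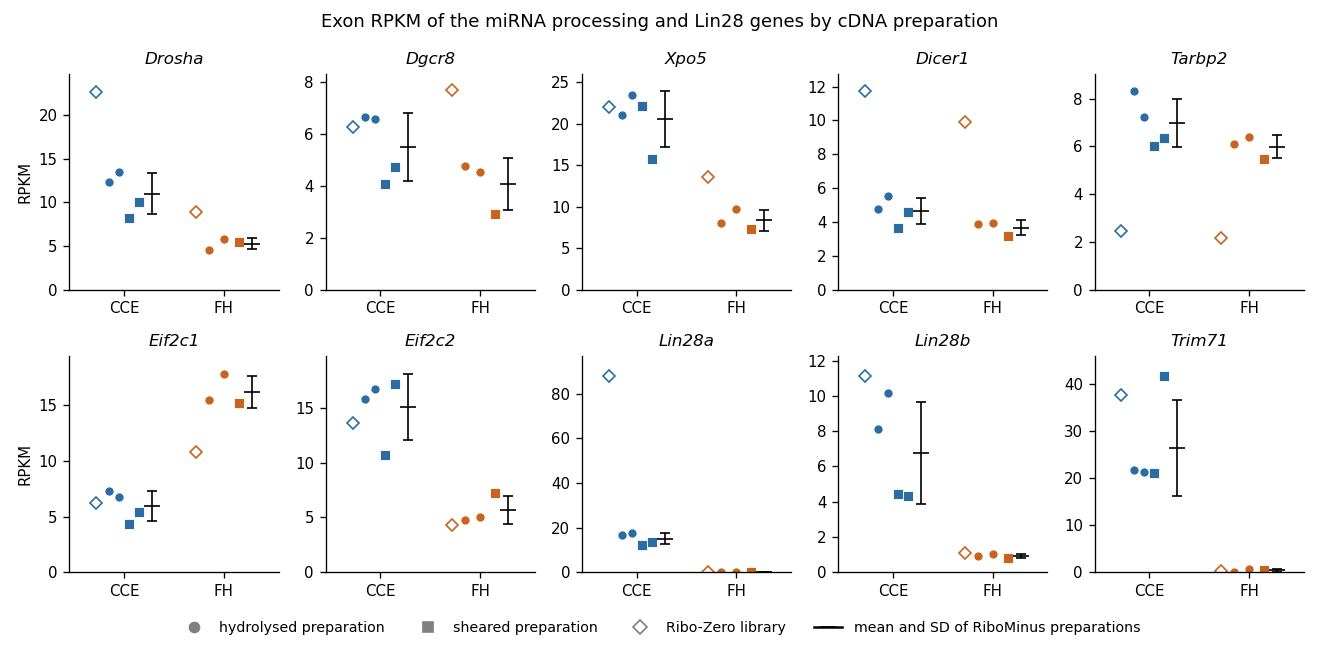
RPKM of the 10 genes in each preparation on linear axes from 0, with circles for hydrolysed and squares for sheared RiboMinus preparations (4 CCE, 3 FH), horizontal lines and bars for their mean and SD, and open diamonds for the 2 Ribo-Zero libraries. Lin28a sits at 0 in all 3 FH preparations, Trim71 is below 1 in all 3, and the points of Dgcr8, Dicer1 and Tarbp2 overlap between the tissues.

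**Figure D2:**
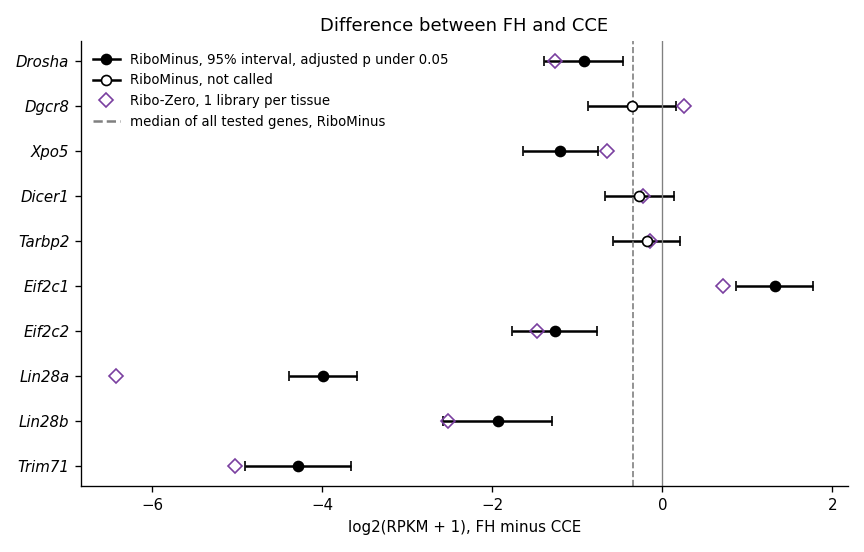
Difference between FH and CCE of each gene on the log2(RPKM + 1) scale, with 95% intervals of the limma fit (filled where called), open diamonds for the Ribo-Zero libraries, and a dashed line at the median of all tested genes (−0.34). Eif2c1 lies above 0 at 1.32, and Trim71 and Lin28a lie lowest at −4.28 and −3.99, where the place of Lin28a, at 0 in FH, is set by the pseudocount and gives no order between the 2 genes.

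Lin28a, the let-7 binding protein best known from embryonic stem cells, was present in CCE and was not detected in FH RiboMinus libraries. Its RPKM was 16.7 and 17.5 in CCE hydrolysed 1 and 2, 12.3 and 13.7 in CCE sheared 1 and 2, and 0 in all 3 FH preparations. CCE was therefore high in every preparation, with a mean of 15.1 ± 2.44 (SD, n = 4), and FH was at 0 throughout. These values rest on 699 tags in CCE and 0 in FH, and taking 3 tags as the most that a count of 0 allows over all FH libraries, Lin28a was at least 177-fold lower in FH, or at least 143.7-fold by the lower limit of the exact 95% interval of the ratio of tags. The difference was −3.99 ± 0.18 (SE), with an adjusted p of 5.96e-07 in limma. With FH at 0 the size of this difference is set by the pseudocount of 1, and it was −7.23 with a pseudocount of 0.1 and −2.58 with 3. In the Ribo-Zero libraries, which are deeper, Lin28a had an RPKM of 87.9 in CCE (8844 tags) and 0.0353 in FH (6 tags), and all 6 FH tags lay in its last exon, within the 3′ UTR. Lin28a lies at chr4:133559245-133574756 with 4 exons, and RPKM was 30.4 over its coding bases and 11.8 over its 3′ UTR in the pooled CCE RiboMinus libraries. The 3′ UTR holds stretches that also match chromosome 7 (416 shared 36-mers), where tags with a single place in the genome cannot be listed, and only 84.9% of its 36-mers were unique. This is the gap in the 3′ UTR of Lin28a in the plot of tags along the transcripts (non-unique stretches from nt 1153 to 1674 of the 3505 nt transcript), and both the miR-125 site and the first let-7 site shown above lie in it.

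Lin28b, the paralog that also blocks let-7 maturation, was lower in FH but remained detectable. Its RPKM was 8.15 and 10.2 in CCE hydrolysed 1 and 2, 4.43 and 4.32 in CCE sheared 1 and 2, 0.921 and 1.046 in FH hydrolysed 1 and 2 and 0.818 in FH sheared 1. Every FH preparation lay below every CCE preparation, and within CCE the hydrolysed preparations were above the sheared preparations. The difference was −1.94 ± 0.28 (SE), with an adjusted p of 0.00044. In Ribo-Zero the RPKM was 11.2 in CCE and 1.11 in FH, which is 10.0-fold lower (95% interval 9.10 to 11.0). The difference was examined along the gene, which lies at chr10:45096426-45206201. Over the coding bases of its main transcript Lin28b had an RPKM of 29.3 in CCE and 3.47 in FH (RiboMinus pools), and of 28.1 and 2.74 in Ribo-Zero. An upstream exon outside this transcript (merged exon 2, chr10:45205234-45205583) had an RPKM of 0.438 in CCE and 2.30 in FH with RiboMinus (2 and 8 tags), and of 1.89 and 1.475 with Ribo-Zero (19 and 25 tags).

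Trim71, a TRIM-NHL protein that represses mRNAs and promotes their decay, and whose worm homolog is a classical let-7 target, was well covered in CCE and near 0 in FH. Its RPKM was 21.7 and 21.4 in CCE hydrolysed 1 and 2, 21.0 and 41.6 in CCE sheared 1 and 2, 0.104 and 0.579 in FH hydrolysed 1 and 2 and 0.408 in FH sheared 1. CCE sheared 2 was high and the other 3 CCE preparations were close together as sums of both locations, while all FH preparations were below 1. Single libraries of CCE hydrolysed 1 were at 24.2 (Vienna-IMP) and 17.5 (Nijmegen), and those of CCE hydrolysed 2 at 13.4 and 27.4. Hydrolysed numbers may be crossed between the locations (below), which would move these sums apart. Both libraries of CCE sheared 2 were high, with an RPKM of 35.6 at Vienna-IMP and 47.2 at Nijmegen. The difference was −4.28 ± 0.27 (SE), with an adjusted p of 3.17e-06, and it was −4.05 without CCE sheared 2. Ribo-Zero gave 37.7 in CCE and 0.191 in FH, which is 197-fold lower (95% interval 148.6 to 268.0). Trim71 lies at chr9:114420393-114473487 with 4 exons, and 99.9% of its exonic 36-mers were unique.

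**Figure D3:**
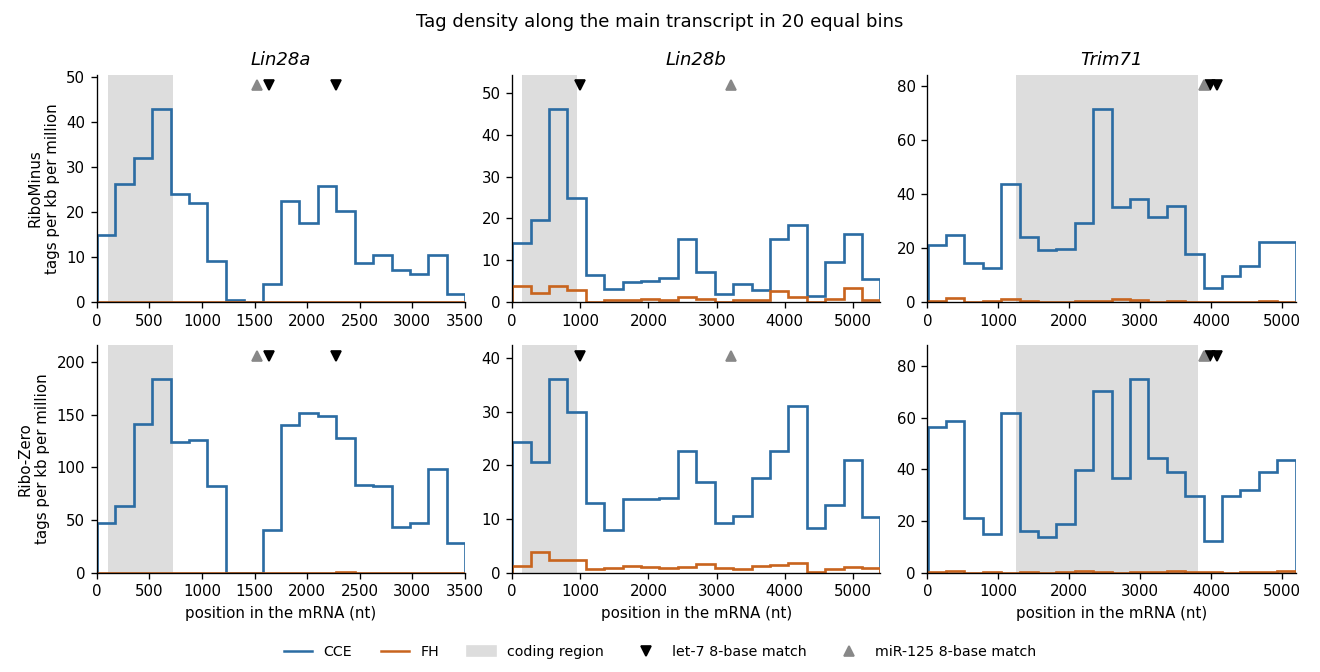
Tags per kb per 1000000 tags along the main transcripts of Lin28a, Lin28b and Trim71 in 20 bins from 5′ to 3′ (position in nt), for pooled CCE and FH libraries of RiboMinus (top) and Ribo-Zero (bottom), with the coding region shaded and triangles at the 8-base let-7 and miR-125 matches. CCE tags cover coding part and 3′ UTR of all 3 genes, and FH tags are at or near 0 except for Lin28b.

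Levels of the 3 genes moved together over the 16 libraries, mainly as the tissues differ, and these correlations are a description since all libraries of a tissue share its RNA or strain. Pearson's r of log2(RPKM + 1) was 0.959 for Lin28a and Lin28b, 0.953 for Lin28a and Trim71 and 0.895 for Lin28b and Trim71. The protein-coding genes most like Lin28a were Zfp42 (r = 0.995), Trim6 (0.991) and Bend4 (0.990), where Zfp42 is a marker of pluripotent cells. Those most like Lin28b were Dlgap5 (0.978), Triml2 (0.976) and Fam122b (0.976), where Dlgap5 is a mitotic spindle protein. Those most like Trim71 were Peg10 (0.988), Bnc1 (0.986) and Ncapd2 (0.986), where Ncapd2 is a condensin subunit. The summed RPKM of the 7 pluripotency markers was 43.6 to 53.1 in CCE and 0.876 to 1.29 in FH, and its part in the Lin28a, Lin28b and Trim71 differences was not tested.

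The Argonaute genes Eif2c1 and Eif2c2 moved in opposite directions. Eif2c1 (Argonaute 1, chr4:126112256-126145878) had an RPKM of 7.33 and 6.75 in CCE hydrolysed 1 and 2, 4.37 and 5.41 in CCE sheared 1 and 2, 15.5 and 17.8 in FH hydrolysed 1 and 2 and 15.2 in FH sheared 1. All FH preparations were above the highest CCE preparation. The difference was 1.32 ± 0.20 (SE), with an adjusted p of 0.00055. Ribo-Zero gave an RPKM of 6.19 in CCE and 10.8 in FH, a ratio of 1.75 (95% interval 1.65 to 1.86), which was 1.11 when tags at the same position were counted once. Eif2c2 (Argonaute 2, the Argonaute that cleaves its target, chr15:72932055-73015377) had an RPKM of 15.8 and 16.7 in CCE hydrolysed 1 and 2, 10.7 and 17.2 in CCE sheared 1 and 2, 4.76 and 5.07 in FH hydrolysed 1 and 2 and 7.19 in FH sheared 1. All FH preparations were below the lowest CCE preparation. The difference was −1.27 ± 0.22 (SE), with an adjusted p of 0.0013. With coding exons alone it was −0.84 with an adjusted p of 0.062, and was no longer called. In the RiboMinus pools the RPKM of Eif2c2 was 10.3 in CCE and 4.80 in FH over coding bases, and 17.3 and 5.41 over its 3′ UTR, a larger difference in the 3′ UTR that was not tested. Ribo-Zero gave an RPKM of 13.7 in CCE and 4.29 in FH.

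Within a preparation the ratio of Eif2c1 to Eif2c2 does not depend on the total used for scaling. It was 0.314 to 0.465 in CCE and 2.12 to 3.52 in FH, with means of 0.398 ± 0.062 (SD, n = 4) and 2.96 ± 0.742 (SD, n = 3). The ratio in Ribo-Zero was 0.454 in CCE and 2.53 in FH. This ratio was formed after the values of both genes were seen, and is a description with no test. Parts of both genes have copies elsewhere, Eif2c1 in Eif2c3 (135 shared 36-mers) and Eif2c2 in the pseudogene Gm6088 on the X chromosome (721 shared 36-mers), and tags from these parts were not listed by the authors, so that levels over coding bases are understated. With unique 36-mers as the length both genes remained called.

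Drosha and Xpo5, which act in nuclear cleavage and export, were lower in FH. Drosha, the nuclear ribonuclease (chr15:12754570-12865045), had an RPKM of 12.3 and 13.5 in CCE hydrolysed 1 and 2, 8.18 and 10.1 in CCE sheared 1 and 2, 4.54 and 5.81 in FH hydrolysed 1 and 2 and 5.44 in FH sheared 1. The tissues did not overlap, and the difference was −0.92 ± 0.20 (SE), with an adjusted p of 0.0047. Ribo-Zero gave an RPKM of 22.7 in CCE and 8.90 in FH. Xpo5 (chr17:46339804-46379248) had an RPKM of 21.0 and 23.5 in CCE hydrolysed 1 and 2, 22.1 and 15.7 in CCE sheared 1 and 2, 8.06 and 9.73 in FH hydrolysed 1 and 2 and 7.28 in FH sheared 1. No FH preparation reached the CCE range, and the difference was −1.20 ± 0.19 (SE), with an adjusted p of 0.00082. In Ribo-Zero the RPKM was 22.0 in CCE and 13.6 in FH, a ratio of 0.620, which was 0.888 with tags in protein-coding exons as the total.

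Dgcr8, the RNA-binding partner of Drosha (chr16:18254041-18289342), did not pass the test. Its RPKM was 6.64 and 6.56 in CCE hydrolysed 1 and 2, 4.04 and 4.72 in CCE sheared 1 and 2, 4.77 and 4.51 in FH hydrolysed 1 and 2 and 2.91 in FH sheared 1. Sheared preparations were the low ones in both tissues, so that FH hydrolysed preparations overlapped CCE sheared preparations. The difference was −0.36 ± 0.23 (SE), with an adjusted p of 0.21. With the preparation number and fragmentation method as a replicate block it was −0.41 with an adjusted p of 0.032, and among hydrolysed preparations alone it was −0.43 with an adjusted p of 0.014. Scaled by exon tags it was −0.06, and in Ribo-Zero Dgcr8 was higher in FH, with an RPKM of 6.26 in CCE and 7.68 in FH (ratio 1.23, 95% interval 1.15 to 1.31), or lower at a ratio of 0.858 with tags at the same position counted once. Over 25 alternatives in processing the RiboMinus difference of Dgcr8 ranged from −0.62 to −0.06. Over coding bases Dgcr8 had an RPKM of 12.4 in CCE and 7.86 in FH (RiboMinus pools), and of 13.6 and 15.7 in Ribo-Zero. The ratio of Drosha to Dgcr8 over merged exons was 1.86 to 2.14 in CCE and 0.952 to 1.87 in FH, ranges that overlap slightly, and was 3.63 and 1.16 in Ribo-Zero. Over coding bases Drosha was closer to Dgcr8 in CCE, at 14.2 in CCE and 6.29 in FH (RiboMinus pools). Of the exonic bases of Dgcr8, 992 are shared with Trmt2a on the other strand or with miRNA genes, and since tags carry no strand their source cannot be told apart.

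Dicer1 and Tarbp2, which act after export, did not pass the test. Dicer1 (chr12:105925952-105990162) had an RPKM of 4.78 and 5.52 in CCE hydrolysed 1 and 2, 3.66 and 4.59 in CCE sheared 1 and 2, 3.86 and 3.96 in FH hydrolysed 1 and 2 and 3.16 in FH sheared 1. The tissues overlapped, with a difference of −0.27 (95% interval −0.67 to 0.13) and an adjusted p of 0.22. Tarbp2 (chr15:102348623-102354107) had an RPKM of 8.31 and 7.25 in CCE hydrolysed 1 and 2, 6.04 and 6.34 in CCE sheared 1 and 2, 6.10 and 6.41 in FH hydrolysed 1 and 2 and 5.47 in FH sheared 1. The tissues overlapped here as well, with a difference of −0.19 (95% interval −0.58 to 0.21) and an adjusted p of 0.39. With exon tags as the total both differences changed sign, to 0.02 for Dicer1 and 0.12 for Tarbp2. In Ribo-Zero the RPKM of Dicer1 was 11.7 in CCE and 9.91 in FH, and that of Tarbp2 was 2.47 and 2.15, with ratios of 0.844 and 0.871 that were 1.21 and 1.247 with exon tags as the total. Of the 36-mers of the merged exons of Tarbp2 77.6% were unique, and tags fell in all 4 merged exons (422 in the CCE RiboMinus libraries). Its main transcript, of 1523 bases, held 226 of these tags, while the merged exons cover 4549 bases and leave 936 bases as introns. Tags of unspliced RNA can therefore count as exon tags. The exon and intron levels of Tarbp2 do not separate spliced from unspliced RNA. Only 40.7% of its coding and 5.04% of its 3′ UTR 36-mers were unique, and 973 36-mers of the gene also occur on chromosome 6.

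RNA-hydrolysis and cDNA-shearing were then compared for these genes. With tissue in the model, 2 of 10 genes were called between hydrolysed and sheared preparations, Dgcr8 at 0.51 ± 0.12 (SE, adjusted p = 0.0085) and Lin28b at 0.60 ± 0.18 (SE, adjusted p = 0.025), both higher after hydrolysis. Across all tested genes 25.7% were called higher and 20.3% lower after hydrolysis. The coefficient was positive for 8 of 10 genes, the exceptions being Eif2c2 and Trim71, with a median of 0.25 beside 0.04 over all genes. From the libraries of Vienna-IMP alone or of Nijmegen alone, none of the 10 genes was called by limma, with 3 and 2 genes at an unadjusted p under 0.05. Over all genes these fits called 1274 and 3220, in place of 4745 from both locations. Both methods had been applied to the same depleted RNA. By the numbers as listed, hydrolysed and sheared preparations of CCE1, CCE2 and FH1 form 3 pairs, while FH hydrolysed 2 has no sheared partner. Hydrolysed numbers may be crossed between the locations (below), in which case these pairs would mix samples. The paired fit was not repeated with crossed numbers. In a fit with these pairs as a replicate block, chosen after seeing the data, 1 of the 10 genes was called, Dgcr8 (0.52, adjusted p = 0.043), and Lin28b was not (0.63, adjusted p = 0.051), with 3491 calls over all genes.

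Ribosomal depletion keeps unspliced RNA, and tags in introns gave a further readout of each gene. Intron density as a percentage of exon density (means of RPKM) was 3.93% in CCE and 8.62% in FH for Drosha. It was 24.6% and 61.9% for Dgcr8, 2.48% and 5.70% for Xpo5, and 8.44% and 21.0% for Dicer1. For Eif2c2 it was 5.43% in CCE and 14.2% in FH, and for Lin28b 2.49% and 19.1%. For these 6 genes every FH preparation was above every CCE preparation, at an exact two-sided permutation p of 0.0571, the smallest possible, among 8 genes tested. For Lin28b, which passed the filter only through CCE, the exon level in the denominator was low in FH by that choice, and its ratio is a description that gives no added support. Overlap and the exact test were taken on the log2 ratio with 0.1 added to each RPKM. On that scale Tarbp2 (37.2% and 57.6%, exact p = 0.229) and Eif2c1 (1.90% and 3.62%, exact p = 0.343) overlapped between the tissues. Tarbp2 has only 936 intron bases, with 32 CCE and 33 FH tags. The CCE intron RPKM of Eif2c1 was 0.026 to 0.158, so that the added 0.1 weighed heavily. Without it every FH preparation of Eif2c1 was above every CCE preparation in this ratio. In the Ribo-Zero libraries Dgcr8 was nearly equal, at 23.1% in CCE and 25.8% in FH. Drosha (2.77% and 7.79%), Xpo5 (2.84% and 5.15%), Dicer1 (5.42% and 16.7%), Eif2c2 (6.23% and 22.6%) and Lin28b (3.75% and 25.6%) were higher in FH. Across 9074 genes with introns 41.5% had every FH preparation above every CCE preparation and 5.07% had every one below. The median log2 difference of the ratio was 0.75 over all genes, 1.15 over the 8 genes and 1.11 over the 7 without Lin28b, and the share of tags in exons was lower in FH (above), whose part in these values was not tested.

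The intron levels themselves differed by less than 1 SD for 4 genes whose exon levels were lower in FH. The intron RPKM of Drosha was 0.432 ± 0.122 in CCE and 0.454 ± 0.085 in FH, that of Xpo5 was 0.510 ± 0.124 and 0.476 ± 0.164, and that of Eif2c2 was 0.820 ± 0.178 and 0.805 ± 0.143 (SD, n = 4 and n = 3). For Lin28b it was 0.169 ± 0.076 in CCE and 0.177 ± 0.032 in FH, while its exon RPKM was 6.77 ± 2.88 and 0.928 ± 0.115. In Ribo-Zero the Lin28b intron RPKM was 0.418 in CCE and 0.285 in FH. The introns of Lin28a had 85 tags in CCE and 1 in FH and those of Trim71 had 272 and 9 in RiboMinus, so that introns and exons were both lower. The introns of Eif2c1 were higher in FH as were its exons, with an RPKM of 0.113 ± 0.061 in CCE and 0.586 ± 0.200 in FH. Introns of Dgcr8 (1.35 ± 0.213 and 2.51 ± 0.460) and Dicer1 (0.392 ± 0.083 and 0.767 ± 0.275) were also higher, while their exons were not called. No intron level over all genes is given here, and the intron to exon ratio rose by a median of 0.75 (log2) over all genes. Equal intron levels can therefore not be placed relative to a typical gene. Tags carry no strand, so that intron tags from a gene on the other strand would be counted too.

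**Figure D4:**
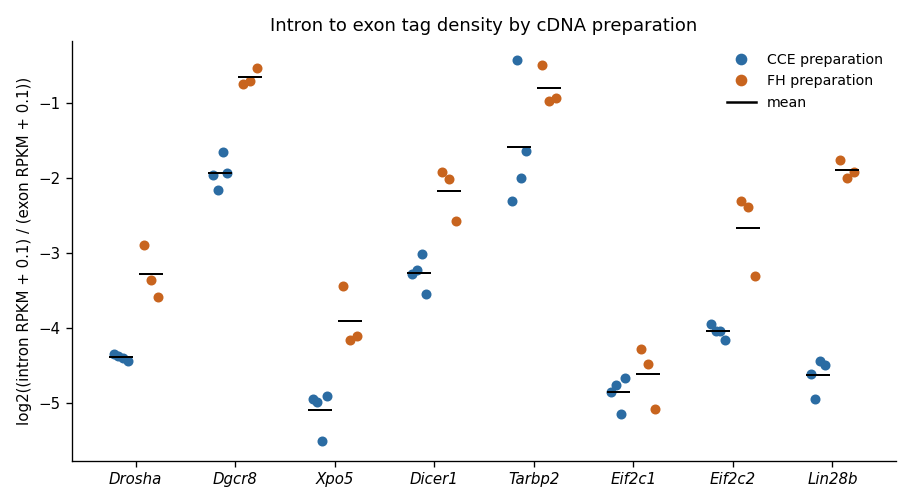
Log2 ratio of intron to exon RPKM (each plus 0.1) of the 8 genes with at least 20 exon tags in each tissue, with a point for each of the 4 CCE and 3 FH RiboMinus preparations and a line at the mean. For Drosha, Dgcr8, Xpo5, Dicer1, Eif2c2 and Lin28b the FH points lie above the CCE points without overlap, and for Tarbp2 and Eif2c1 they overlap.

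Other genes of the pathway were taken from 7 lists with 57 genes, of which 49 passed the filter. Of these 21 were lower and 3 higher in FH and 25 were not called, with a median difference of −0.41, beside the 34.8% and 20% of all tested genes and their median of −0.34. Of the 41 that passed in both tissues 17 were lower and 2 higher, with a median of −0.38. Over all genes that did so 35.4% were lower and 9.47% higher, with a median of −0.39. The split depended on the total, with 11 lower and 6 higher of 48 tested genes for exon tags and 15 lower and 6 higher for median of ratios. Over all genes 20.4% were lower and 27.2% higher with exon tags, and 24.4% and 24.4% with median of ratios. Under the filter were 8 genes, the 3 Piwi clade Argonautes Piwil1, Piwil2 and Piwil4 among them. Of 9 Microprocessor cofactors and export genes, 8 were tested and 1 was called, Ran, the GTPase that drives nuclear export, which fell from an RPKM of 13.1 ± 2.44 to 4.40 ± 1.43 (−1.40, adjusted p = 0.00086). The median of this list was −0.33, and −0.0043 with exon tags as the total. With exon tags and with median of ratios as the total, Ran remained lower and 2 genes were called higher, the splicing factor Srsf3 and the helicase Ddx17, which are named after their values were seen.

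Among 14 Dicer partners and genes of the silencing complex 10 were tested, of which 4 were lower and 2 higher in FH. Mov10, an RNA helicase of the silencing complex, fell from 24.6 ± 4.12 to 4.63 ± 0.860 (RPKM; −2.18, adjusted p = 2.56e-05). Tnrc6c, a GW182 protein that links Argonaute to deadenylation, rose from 6.13 ± 1.56 to 19.01 ± 3.88 (1.497, adjusted p = 0.00050), and its paralog Tnrc6a fell from 14.8 ± 4.22 to 7.83 ± 1.24 (−0.80, adjusted p = 0.021). The chaperone Hsp90ab1 fell from 92.8 ± 20.6 to 48.0 ± 12.5 (−0.94, adjusted p = 0.013). With exon tags as the total the list had 1 lower and 3 higher genes and its median moved from −0.29 to 0.04, with Tnrc6a and Hsp90ab1 no longer called. Over all genes the shares moved from 34.8% lower and 20% higher to 20.4% and 27.2%, and the median from −0.34 to −0.03. Eif2c3 and Eif2c4, the other Argonautes, were under the filter, with Eif2c4 at an RPKM of 0.301 ± 0.216 in CCE and 2.31 ± 0.285 in FH.

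Of 8 genes of deadenylation and decapping, 5 were lower in FH and 3 were not called. Dcp1a, among the 5, passed the filter only through CCE, and of the 6 genes that passed in both tissues 4 were lower, beside 35.4% of all genes that did so. The largest was Cnot1, the scaffold of the CCR4-NOT deadenylase, which fell from 79.3 ± 21.1 to 18.7 ± 5.81 (RPKM; −2.04, adjusted p = 0.00035). The decapping genes Edc4 (−1.21, adjusted p = 0.017) and Dcp2 (−0.92, adjusted p = 0.023) and the deadenylase Cnot7 (−0.74, adjusted p = 0.037) fell as well, and with exon tags as the total Cnot1 alone was called. On that scale 20.4% of all genes were lower. Of 5 genes that tail and degrade let-7 precursors none was called by limma or by limma voom, and none had an unadjusted p under 0.05 in either, with Zcchc11, the uridylyl transferase recruited by Lin28a, at 9.61 ± 1.74 in CCE and 9.90 ± 0.972 in FH. In Ribo-Zero Zcchc11 was lower in FH, at 16.9 in CCE and 9.08 in FH, and the list summed to 73.0 and 45.5. The median Ribo-Zero difference over all tested genes was −0.48. Of 3 relatives of Trim71 with an NHL domain, Trim2, a neuronal ubiquitin ligase, had an RPKM of 1.62 ± 0.200 in CCE and 16.4 ± 0.435 in FH (2.73). It passed the filter only through FH and had to differ to pass, so that its call gives no added support. Trim3 and Trim32 were not called.

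Of 15 genes known as let-7 targets 11 were lower in FH, none was higher and 4 were not called, with a median of −1.06. Hmga2, Arid3b and Nr6a1 passed the filter only through CCE and had to differ, and of the 12 that passed in both tissues 8 were lower, with a median of −1.04, beside 35.4% lower and a median of −0.39 over all genes that passed in both. The 4 largest were Hmga2, Arid3b, Igf2bp1 and Arid3a. Hmga2, a chromatin protein of embryonic cells, fell from an RPKM of 21.8 ± 2.50 to 2.31 ± 0.453 (−2.79, adjusted p = 3.13e-06). Arid3b fell from 14.8 ± 2.66 to 2.26 ± 0.4662 (−2.28, adjusted p = 1.76e-05), and its paralog Arid3a from 23.9 ± 4.19 to 4.97 ± 1.24 (−2.07, adjusted p = 5.16e-05). Igf2bp1, an RNA-binding protein of fetal tissue, fell from 54.2 ± 13.8 to 10.5 ± 1.47 (−2.23, adjusted p = 8.51e-05). With exon tags as the total 8 of the 15 were called lower, with a median of −0.72, beside 20.4% of all genes tested on that scale. The 8-base let-7 match was present in 6 of the 15 3′ UTRs. Ccnd1 and Ccnd2, the D-type cyclins of the list, were lower in FH with RiboMinus (−1.04 and −0.89) and higher with Ribo-Zero, where CCE had an RPKM of 23.8 and 24.5 and FH of 37.6 and 38.7.

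Finally, tags were counted around the let-7 and miR-98 hairpins, which lie in primary transcripts or in introns of host genes. The hairpins of let-7j and let-7k, each located once and with 0 tags in its window, were left out of the counts below. The 12 other hairpins were each located once in mm9, and their windows of 1000 bp merged to 9 windows with 10943 bases. The RiboMinus libraries held 252 CCE and 524 FH tags there, or 19.3 and 52.8 per 1000000 unique tags. Per preparation it was 24.8 and 25.3 in CCE hydrolysed 1 and 2, 13.4 and 10.4 in CCE sheared 1 and 2, 56.8 and 60.8 in FH hydrolysed 1 and 2 and 26.5 in FH sheared 1. The tissues did not overlap, and sheared preparations were lower than hydrolysed preparations in both. Single libraries ranged from 16.5 to 29.9 in CCE and 44.4 to 72.7 in FH after hydrolysis, and from 8.51 to 16.1 and 24.8 to 28.2 after shearing, so that libraries overlapped only across fragmentation methods. In Ribo-Zero it was 28.4 and 57.9 per 1000000 unique tags. Without the windows on chromosome 15 the sums were 18.3 in CCE and 27.5 in FH with RiboMinus, and 28.2 and 49.3 with Ribo-Zero. Protein-coding exons held 66.8 to 69.5% of CCE and 51.3 to 56.0% of FH RiboMinus tags, so that more tags fell elsewhere in FH. The part of this general shift in the window sums was not tested. The difference between the tissues was largest on chromosome 15, where the Mirlet7c-2 window (chr15:85536581-85537580) had 8 CCE and 192 FH tags and the neighbouring Mirlet7b window had 12 and 104. Mirlet7c-1 on chromosome 16 had 9 and 52 tags. Not all windows were higher in FH. In RiboMinus the Mirlet7a-1 window had 3.37 tags per kb per 1000000 unique tags in CCE and 3.22 in FH and that of Mirlet7g had 0.460 and 0.403 (6 and 4 tags), while that of Mirlet7d was little higher in FH at 3.30 and 4.23. In Ribo-Zero Mirlet7a-1 (7.00 and 9.31) and Mirlet7g (1.01 and 2.83) were higher in FH. Mirlet7e had 76 CCE and 35 FH tags in RiboMinus, while in Ribo-Zero it had 4.32 and 7.29 tags per kb per 1000000 unique tags. The tags are longer than a mature miRNA, so that mature let-7 was not measured, and Wdr82, Huwe1 and the other genes that overlap a window can give tags there.

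**Figure D5:**
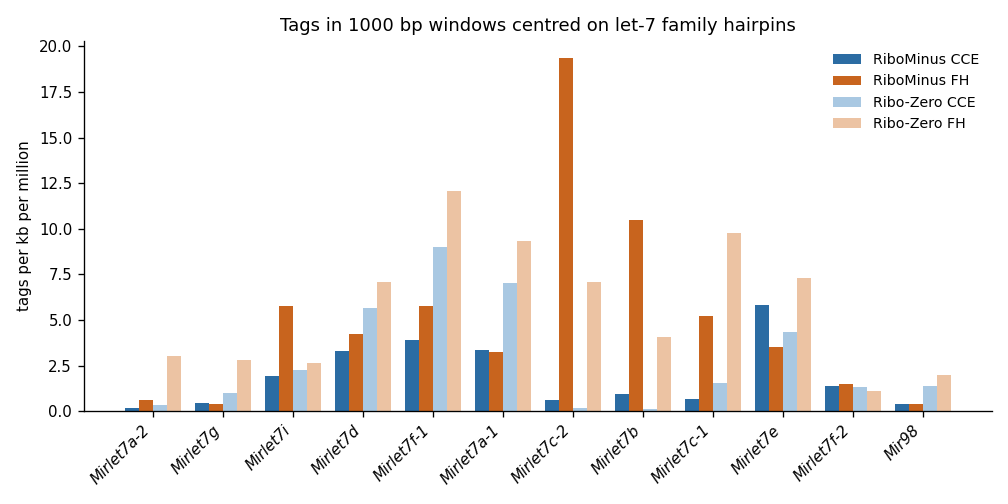
Tags per kb per 1000000 tags in windows of 1000 bp around 12 let-7 and miR-98 hairpins (without let-7j and let-7k), for pooled CCE and FH libraries of RiboMinus and Ribo-Zero, where windows of neighbouring hairpins overlap and share tags. The windows of Mirlet7c-2 and Mirlet7b are near 0 in CCE (0.613 and 0.920 in RiboMinus) and at 19.3 and 10.5 in FH.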

How the data were processed

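The authors aligned tags of 36 nt (RiboMinus) or 51 nt (Ribo-Zero) to mm9 with Bowtie, whose version is not given in the sources used here, retained uniquely matching tags and deposited the start and end of each, without counts. Splice-junction tags were not mapped, and RiboMinus files hold no mitochondrial tags. A tag was assigned to a gene by its midpoint and the merged exons of GENCODE M1, with tags of both locations summed per cDNA preparation, and RPKM was computed from the counts and all unique tags of a library.

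Genes with a mean RPKM above 3 in at least 1 tissue were tested on log2(RPKM + 1) with limma 3.58.1 in R 4.3.3 (trended variance, Benjamini-Hochberg adjustment over 10304 genes, threshold 0.05). In data simulated for FH against CCE with these 10304 genes the test recovered 200 of 200 genes changed 4-fold, with 10 unchanged genes called. The simulated counts had the same fixed spread for all genes, no fragmentation effect and no general shift between the tissues. Changed genes were drawn above a minimum tag rate, so that these rates need not hold for the real data. For single values, exact permutation tests (two-sided) were run in scipy 1.17.1. The intron ratio used a pseudocount of 0.1 and at least 20 exon tags in each tissue. Introns are the gene span less the exons of every gene. Intervals of tag counts and their ratios are exact at 95% and describe counting error alone, while those of differences come from limma over preparations. A count of 0 was given a floor of 3 tags.

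Preparation numbers come from the lane list of the study and not from the labels, and the protocol text of sheared samples also describes hydrolysis. Preparations of the same number and fragmentation method in CCE and FH deviated together from their tissue means (r = 0.627, 0.619 and 0.480 over 10304 genes), which includes the shared fragmentation method. The difference of hydrolysed preparations 1 and 2 in CCE against that in FH had r = −0.149. As this value uses sums of both locations, between which the numbers may be crossed, it cannot decide whether numbers deviate together within a method. A fit with this replicate block was made all the same (8 of 10 genes called). The 10 genes, the pathway and marker lists and the comparisons were chosen with earlier results of these data known. All 10 genes are named, with up to 4 called genes of each pathway list by size of the difference and the 3 most similar genes of Lin28a, Lin28b and Trim71. A further 8 samples and the marker gene Sox1 were not analysed here.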

Additional observations from a re-analysis of the deposited data

Results flagged for a closer look

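Trim71 in CCE sheared 2, at an RPKM of 41.6, stood apart from the other 3 CCE preparations, of which the next was at 21.7. Its gap was 0.966 of the range of the group (Dixon's test for 4 values, 95% level). It was the only one of 29 groups tested that passed this limit, which chance passes in about 1 of 20 groups. The flag was computed with hydrolysed numbers as listed and not with these numbers crossed between the locations. Single hydrolysed CCE libraries ranged from 13.4 to 27.4. Trim71 remained lower in FH without this preparation (−4.05, adjusted p = 5.94e-06).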

How the results depend on the processing

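Of the 10 genes 6 to 8 were called between FH and CCE under 25 alternatives, 6 with coding exons alone, 8 with the fragmentation method as covariate, with the replicate block or with hydrolysed preparations alone, and 7 in all others, those that left out 1 preparation included. Of all genes 5639 of 10304 were called in the main fit. With exon tags 2135 were lower and 2853 higher of 10476, and with median of ratios 2526 and 2530 of 10348. Where no count over all genes is given, the number called is not a result about these 10 genes. The replicate block changed no call other than Dgcr8 (−0.41, adjusted p = 0.032) and gave 7489 calls over all genes in place of 5639. Hydrolysed preparation numbers may be crossed at 1 location, as the log2 ratio of preparation 1 to 2 was opposite between Vienna-IMP and Nijmegen in CCE (r = −0.64 across 7765 genes) and FH (r = −0.50), and crossing them left 7 genes called and 5265 over all genes. Differences that changed sign were Dicer1 (0.015, exon tags as the total) and Tarbp2 (0.12 with exon tags, 0.034 with median of ratios), none called. For the 24 called pathway genes 544 of 600 values stayed on their side of the threshold, 56 were no longer called and none changed sign.

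Between hydrolysed and sheared preparations the calls were less stable. None of the 10 genes was called from Vienna-IMP alone (0, with 1274 of all genes in place of 4745) or from Nijmegen alone (0, with 3220), 1 was called with the replicate block of hydrolysed and sheared pairs, chosen after seeing the data (3491 of all genes), 1 was called in CCE alone (1547 of all genes), and 1 to 2 were called without a preparation (2831 to 5811 of all genes, the lowest without FH sheared 1). The sign changed for Drosha (−0.022, Nijmegen alone) and Eif2c2 (0.016 with exon tags, 0.24 in CCE alone, −0.27 to 0.24 without a preparation), and for the intron ratio of Eif2c1 (−0.050, Nijmegen alone). The causes were not tested. Depth limits Trim71 and Lin28b in FH, which rest on 19 and 86 RiboMinus tags, and for Lin28a in FH to a bound.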
